A study of Bos taurus with 10 samples.

Results

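The insulin-like growth factor (IGF) genes measured in these bovine embryos comprised the ligands *IGF1* and *IGF2*, the receptors *IGF1R* and *IGF2R*, and the binding proteins *IGFBP2*, *IGFBP3*, *IGFBP4*, *IGFBP5*, *IGFBP6* and *IGFBP7*. They were chosen by gene symbol, and all 10 were found among the 20112 genes of the deposited table. The table holds RNA-seq of 10 single early blastocysts of *Bos taurus* produced in vitro, labelled as day 7 after fertilization. The WT group (5 embryos, columns nc1 to nc5) had received mRNA of BE3, a cytosine base editor that can turn codons into stop codons, at the zygote stage and no guide RNA. The *SOX2* KO group (5 embryos, columns ko1 to ko5) had received BE3 mRNA together with guide RNAs against *SOX2*, a transcription factor of pluripotent cells, so that the editor mRNA was common to both groups. Each library is 1 whole embryo and mixes all of its cell types. Injected embryos can be mosaic, and the share of edited alleles in each embryo was not analysed here. The paper reports that part of the cDNA of each sequenced blastocyst was genotyped, and that few of its edited blastocysts were mosaic.

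In the IGF system, both ligands signal through IGF1R, a receptor tyrosine kinase that passes the signal to the PI3K/AKT and MAPK branches. IGF2R, the mannose-6-phosphate receptor, has no kinase and carries IGF2 to the lysosome, and the secreted binding proteins hold the ligands and release them when proteases cleave them. The system is known for supporting growth and survival of preimplantation embryos, in which the oviduct and uterus are also sources of ligand.

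Levels are given as normalized read counts, that is, reads divided by the size factor of the embryo. A gene was called when its limma adjusted p was at most 0.05 and its fold change was at least 2 or at most 0.5. The log2 fold changes below are of *SOX2* KO against WT on the scale of log2(normalized read count + 1), which understates the change of low genes. The reads are not divided by transcript length, so levels were compared between embryos and not between genes.

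Reads assigned to genes numbered 2223670 to 5134855 per WT embryo and 2578284 to 4337342 per *SOX2* KO embryo. The ribosomal RNA gene *RN18S1* accounted for 26.4 to 37.0% of them among WT embryos and 32.5 to 45.0% among *SOX2* KO embryos. *SOX2* itself had a normalized read count of 78.2 ± 14.1 in WT and 56.6 ± 23.2 in *SOX2* KO (SD, n = 5 each), with a log2 fold change of -0.55 ± 0.27 (SE) and a limma adjusted p of 0.167. The counts do not show the edited bases, so this level does not check the knockout. Markers of the cell types of a blastocyst were present, and their sums differed in how far they separated the groups. The summed level of 11 epiblast and pluripotency markers ranged from 2976 to 3541 among WT embryos and from 1381 to 1770 among *SOX2* KO embryos. The corresponding ranges were 9398 to 16550 and 5163 to 7867 for 10 primitive endoderm markers, and 27405 to 40726 and 38251 to 52118 for 13 trophectoderm markers. The trophectoderm ranges overlapped, *KRT8* and *KRT18* held the most reads of that list, and 2 of its 13 markers were called, both higher. The primitive endoderm sum was carried by *FN1*, which made up 60.9 to 88.4% of it, and the sum of the other 9 markers overlapped between the groups, ranging from 1642 to 1960 among WT embryos and from 1837 to 2020 among *SOX2* KO embryos. Among these markers, *HNF4A*, *PDGFRA* and *FN1* were called lower and *APOA1* was called higher. Of 11 markers of cumulus and granulosa cells, 5 stayed under 10 in every embryo. The sum of the list ranged from 47.5 to 157 among WT embryos and from 99.4 to 485 among *SOX2* KO embryos. *CYP11A1* made up most of the sum in nc4, nc5, ko1, ko2, ko3 and ko5, where it was 82.6 to 402. It did not in nc1, nc2 and nc3 (14.8 to 29.8) or in ko4 (1.64). The granulosa marker *NR5A1* was at 0 in all 5 WT embryos and had 1 to 10 reads in each *SOX2* KO embryo. No other gene of this list was called in limma. *CYP11A1* had an adjusted p of 0.196 in limma and 0.0579 in DESeq2, but was called higher in edgeR (adjusted p 0.0164). For the remaining markers of the list the limma adjusted p ran from 0.105 (*HAS2*) to 0.976 (*CYP19A1*). The markers *FGF4*, *SOX17*, *PTX3*, *INHA* and *GREM1* were not analysed here. The part of these markers in the IGF results was not tested. In whole embryos, fewer cells of a type and less RNA per cell cannot be told apart.

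Of the 10 IGF genes, all of which passed the filter on low values, 3 were called. *IGF2* was called higher and *IGFBP2* and *IGFBP4* were called lower in *SOX2* KO embryos. Across the 20056 genes tested, 8.93% were called higher and 1.16% were called lower, so that calls to the lower side were the rarer kind. The median log2 fold change was 0.20 over the 10 IGF genes and 0.25 over all genes tested, and 5 of the 10 lay above 0 against 62.9% of all genes. The adjusted p alone was at most 0.05 for 5 IGF genes, the other two being *IGF2R*, higher, and *IGFBP3*, lower, each with a change under the fold threshold. *IGF2*, *IGFBP2*, *IGFBP3* and *IGFBP4* were among the genes that the study itself picked for display from these embryos, so their direction is not independent evidence.

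**Figure D1:**
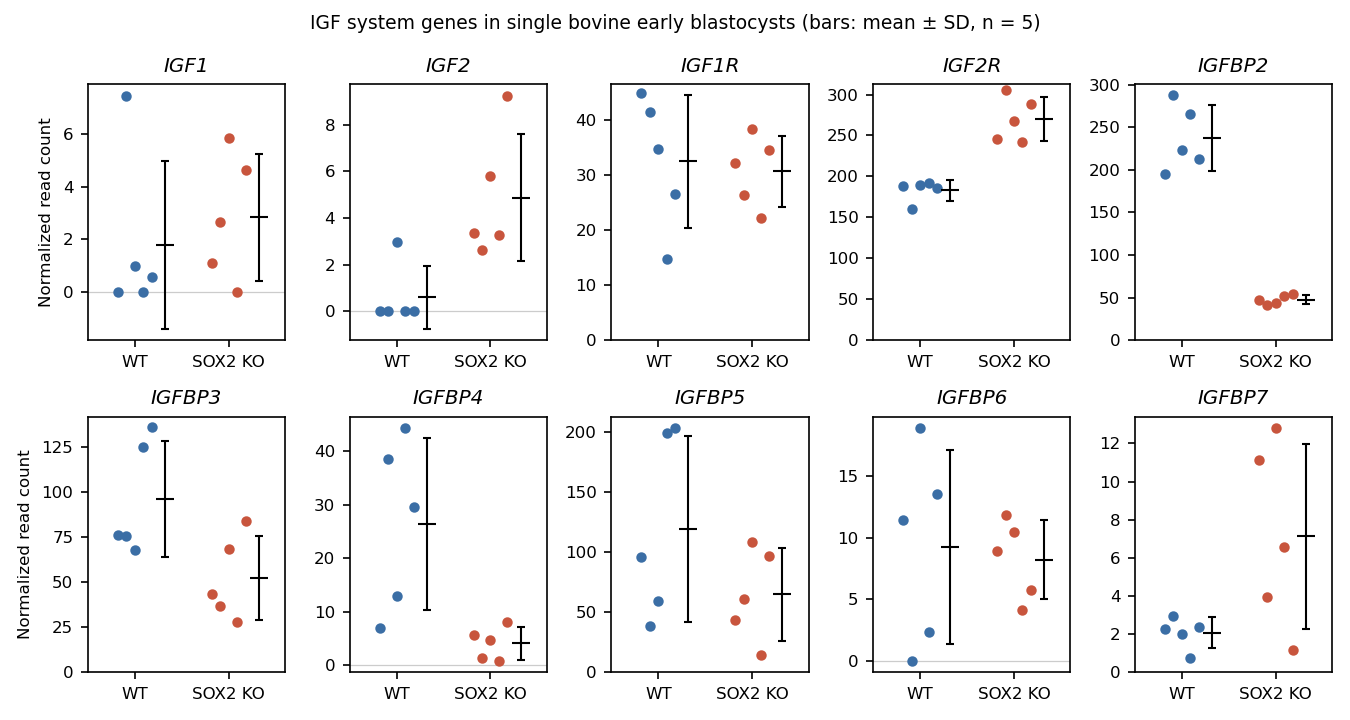
Normalized read count (y axis, linear, a separate scale for each gene) of the 10 IGF genes in single WT embryos (blue) and *SOX2* KO embryos (red), with the group mean ± SD (black, n = 5). For *IGFBP2* the *SOX2* KO embryos sit between 40.9 and 54.2, all below the lowest WT embryo at 195, and for *IGF2R* they sit between 242 and 305, all above the highest WT embryo at 192.

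The ligand genes had few reads in all embryos. *IGF2*, the fetal growth factor of the pair, was listed at 0 in 4 of the 5 WT embryos and at 2.98 in nc3, which is 3 reads. From ko1 to ko5 its values were 3.34, 2.64, 5.81, 3.29 and 9.22, made of 3, 2, 5, 4 and 8 reads. Every *SOX2* KO embryo thus held *IGF2* reads, but the groups overlapped, because nc3 stood above ko2. Summed over embryos, 3 reads in WT stood against 22 in *SOX2* KO, a ratio of 9.52 after scaling to the size factors, with an exact 95% interval of 2.86 to 49.7 for counting error alone. The log2 fold change was 2.04 ± 0.56 (SE), with a 95% interval of 0.87 to 3.21 and a limma adjusted p of 0.0223.

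This call of *IGF2* was not stable. It was lost when nc1, nc2, nc4, nc5, ko3 or ko5 was left out (limma adjusted p 0.0501 to 0.067), and the count tests gave an adjusted p of 0.0560 (DESeq2) and 0.0654 (edgeR). When limma was given the *RN18S1* share as a covariate, the log2 fold change of *IGF2* became 1.16 with an adjusted p of 0.419. Among low genes, calls to the higher side were common: of the 8722 genes whose mean lay between 1 and 10, 14.1% were called higher, against 8.93% of all genes, and their median log2 fold change was 0.93.

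*IGF1*, the ligand best known for acting after birth under growth hormone, also had few reads. The values of nc1 to nc5 were 0, 7.42, 0.994, 0 and 0.590, and those of ko1 to ko5 were 1.11, 2.64, 5.81, 0 and 4.61. No embryo held more than 5 reads, and the highest value of all was that of a WT embryo. The totals of 7 reads in WT and 12 in *SOX2* KO gave a scaled ratio of 2.23 with an exact 95% interval of 0.808 to 6.67. The log2 fold change was 0.69 ± 0.67 (SE) with a limma adjusted p of 0.488, so a difference was not detectable at this depth, and under quantile normalization its sign turned.

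Of the receptor genes, *IGF2R* passed the adjusted p in limma and *IGF1R* did not, and the difference between their changes was not tested. *IGF1R*, the signalling receptor, had values of 45.0, 41.5, 34.8, 14.8 and 26.6 in WT and of 32.3, 26.4, 38.4, 22.2 and 34.6 in *SOX2* KO. The *SOX2* KO values lay within the WT range. The group means were 32.5 ± 12.2 and 30.8 ± 6.47 (SD, n = 5 each). Its log2 fold change was -0.01 ± 0.31 (SE), its 95% interval ran from -0.66 to 0.64, and the limma adjusted p was 0.991, so a change of either sign within that interval was not detectable.

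*IGF2R*, which removes IGF2 from the cell surface, was higher in every *SOX2* KO embryo than in every WT embryo. Its values were 189, 160, 189, 192 and 185 in WT and 246, 305, 267, 242 and 288 in *SOX2* KO. The lowest *SOX2* KO value was 1.26 times the highest WT value, a separation that 6.41% of all genes showed in this direction. The means were 183 ± 13.0 and 270 ± 27.0 (SD, n = 5 each), from 1106 and 1227 reads. *IGF2R* had a log2 fold change of 0.56 ± 0.15 (SE), with a 95% interval of 0.25 to 0.86 and a limma adjusted p of 0.0189. In an exact two-sided permutation test of the embryo values, p was 0.00794, the smallest that 5 against 5 can give.

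The change of *IGF2R* stayed under the fold threshold, and its adjusted p depended on the scaling. This p was 0.00287 in DESeq2 and 0.0475 in edgeR, 0.0538 in limma without ko5, 0.0664 after scaling to equal totals and 0.218 with the *RN18S1* share as a covariate. The log2 fold change remained between 0.43 and 0.66 in all 13 alternatives. Within each group *IGF2R* was more even between embryos than most genes of its level: the SD of its log2 values was 0.11 in WT and 0.14 in *SOX2* KO, where the medians over genes with a mean of 100 to 300 were 0.27 and 0.27. At this level 3.37% of genes had a smaller SD in WT and 10.3% in *SOX2* KO.

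The reads of *IGF2R* per read of *IGF1R*, a ratio that does not depend on the scaling of an embryo, were 4.19, 3.86, 5.43, 13.0 and 6.98 in WT and 7.62, 11.6, 6.97, 10.9 and 8.33 in *SOX2* KO. The WT embryo nc4, which had the lowest *IGF1R* value, had the highest ratio of all, and the groups overlapped.

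*IGFBP2*, a binding protein with a preference for IGF2, was the IGF gene that separated the groups most clearly. Its values were 195, 288, 223, 266 and 213 in WT and 46.8, 40.9, 44.2, 51.8 and 54.2 in *SOX2* KO. The lowest WT embryo was 3.59 times the highest *SOX2* KO embryo, and 2.76% of all genes had every *SOX2* KO embryo below every WT embryo. The mean fell from 237 ± 38.6 to 47.6 ± 5.42 (SD, n = 5 each), which is 20.1% of the WT level. It rested on 1376 reads in WT and 221 in *SOX2* KO. *IGFBP2* had a log2 fold change of -2.28 ± 0.18 (SE), with a 95% interval of -2.65 to -1.91 and a limma adjusted p of 4.32e-07.

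No other gene of the 20056 had as small a p as *IGFBP2* in limma or in edgeR, and in DESeq2 it ranked 2. By size of the fall it ranked 36 in limma. The SD of its log2 values was 0.23 in WT and 0.16 in *SOX2* KO, and 36.1% and 14.6% of genes with a mean of 100 to 300 had a smaller one. *IGFBP2* was called in all 13 alternatives and after leaving out any 1 of the 10 embryos, with log2 fold changes of -2.41 to -2.18 and of -2.35 to -2.21. With the *RN18S1* share as a covariate the log2 fold change was -2.29 and the limma adjusted p 2.29e-05. The summed epiblast markers given above were also lower in every *SOX2* KO embryo, as was the primitive endoderm sum with *FN1* but not without it, and their part in this result was not tested.

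The ratio of *IGFBP2* reads to *IGF2R* reads was 1.03, 1.80, 1.18, 1.38 and 1.15 in WT. Among *SOX2* KO embryos it was 0.190, 0.134, 0.165, 0.214 and 0.188. This ratio does not depend on the scaling of an embryo. *IGF2R* was itself higher in every *SOX2* KO embryo, so the ratio joins its rise to the fall of *IGFBP2* and does not measure *IGFBP2* alone.

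*IGFBP4*, a binding protein that mostly inhibits IGF action and is cleaved by the protease PAPPA, was the other IGF gene called lower. Its values were 6.87, 38.6, 12.9, 44.3 and 29.5 in WT and 5.57, 1.32, 4.65, 0.821 and 8.07 in *SOX2* KO. Overlap came from 1 pair of embryos, nc1 lying below ko5. The mean fell from 26.4 ± 16.1 to 4.09 ± 3.03 (SD, n = 5 each), from 155 reads to 18. The log2 fold change was -2.41 ± 0.57 (SE), with a 95% interval of -3.59 to -1.23 and a limma adjusted p of 0.0104, and the adjusted p was 0.000715 in DESeq2 and 0.00492 in edgeR. The call held after leaving out any 1 of the 10 embryos and in 12 of 13 alternatives, the exception being the *RN18S1* covariate (log2 fold change -2.66, adjusted p 0.0896).

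*IGFBP3*, the main carrier of IGFs in the circulation, was lower on average and less clearly separated. Its values were 76.3, 75.6, 67.6, 125 and 136 in WT and 43.4, 37.0, 68.6, 27.9 and 84.2 in *SOX2* KO. The embryos ko3 and ko5 lay within the WT range, and the other three lay below all WT embryos. The means were 96.2 ± 31.9 and 52.2 ± 23.4 (SD, n = 5 each). On the log2 scale the change was -0.92 ± 0.28 (SE), with a 95% interval of -1.51 to -0.33 and a limma adjusted p of 0.0378, and the exact permutation test gave p = 0.0635. The adjusted p was 0.0383 in DESeq2 and 0.0262 in edgeR. It rose above 0.05 without nc1, nc4, nc5, ko1, ko2 or ko4 (limma adjusted p 0.0522 to 0.0973), and *IGFBP3* passed the fold threshold as well when nc3, ko3 or ko5 was left out.

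*IGFBP5*, a binding protein that attaches to the extracellular matrix, varied more between embryos than between groups. Its values were 96.2, 38.6, 59.7, 199 and 203 in WT and 43.4, 60.7, 108, 14.8 and 96.9 in *SOX2* KO. The ranges overlapped broadly. The means were 119 ± 77.4 and 64.8 ± 38.3 (SD, n = 5 each), and the log2 fold change was -0.87 ± 0.46 (SE), with a 95% interval of -1.83 to 0.09 and a limma adjusted p of 0.195. The SD of its log2 values was 1.05 in WT and 1.12 in *SOX2* KO, against a median of 0.33 in each group over genes with a mean of 50 to 100, and 97.7% and 98.4% of those genes had a smaller SD. *IGFBP3*, at the same level, had SDs of 0.46 and 0.64, with 76.3% and 92.1% of genes below them.

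*IGFBP3* and *IGFBP5* ordered the embryos much alike. In WT, nc5, nc4 and nc1 were the 3 highest embryos for both, in that order. In *SOX2* KO, ko3 and ko5 were the 2 highest and ko4 the lowest for both. The embryo ko4 was also the lowest of its group for *IGF1*, *IGF1R*, *IGF2R*, *IGFBP4* and *IGFBP6*, but the second highest for *IGFBP2*. These orders describe 5 embryos in each group and were not tested.

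**Figure D2:**
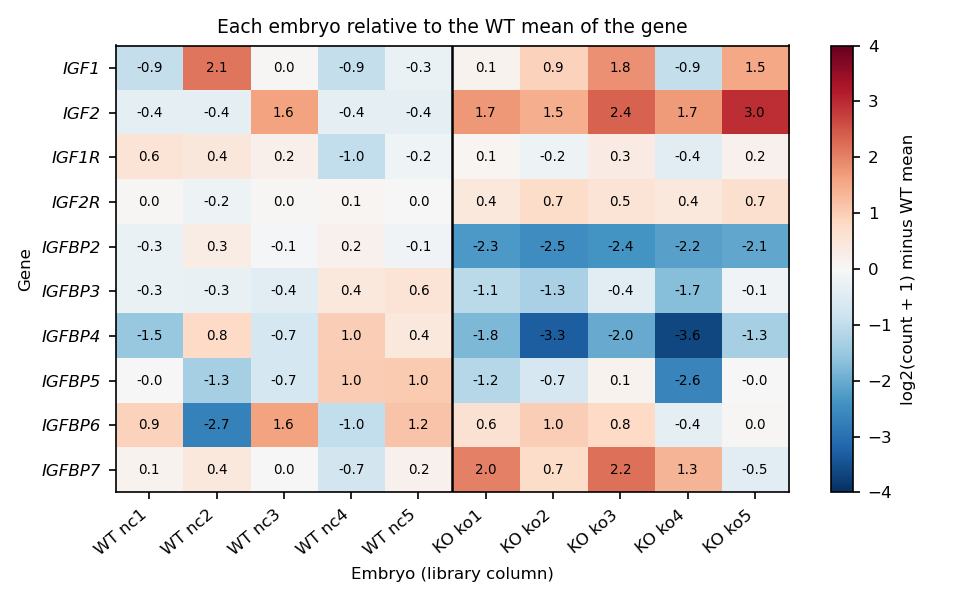
Difference of each embryo's log2(normalized read count + 1) from the WT mean of the same gene (colour and printed value), with the 10 IGF genes in rows and the embryos in columns, WT to the left of the black line. *IGFBP2* is low in all 5 *SOX2* KO embryos to a like degree, whereas the low values of *IGFBP4* and *IGFBP5* differ from embryo to embryo and are lowest in ko4.

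*IGFBP6*, which binds IGF2 far more tightly than IGF1, had values of 11.4, 0, 18.9, 2.33 and 13.6 in WT and of 8.91, 11.9, 10.5, 4.11 and 5.77 in *SOX2* KO. The WT embryos spanned the whole range. The means were 9.25 ± 7.91 and 8.23 ± 3.24 (SD, n = 5 each), while the log2 fold change was 0.41 ± 0.68 (SE, limma adjusted p 0.702), so the mean and the log2 scale differed in sign. Without nc2, which held no *IGFBP6* read, the log2 fold change was -0.26, and no direction can be given.

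*IGFBP7*, a related protein with low affinity for IGFs, was close to the limit of counting in WT. Its values were 2.29, 2.97, 1.99, 0.777 and 2.36 in WT, from 12 reads in all, and 11.1, 3.96, 12.8, 6.57 and 1.15 in *SOX2* KO, from 33 reads. The embryos ko1 to ko4 lay above all WT embryos, and ko5 did not. The scaled ratio of the reads was 3.57, with an exact 95% interval of 1.80 to 7.59 for counting error alone. Over embryos, the log2 fold change was 1.17 ± 0.57 (SE), with a 95% interval of -0.02 to 2.36 and a limma adjusted p of 0.161, and the exact permutation test gave p = 0.0714.

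Whether the binding proteins fell by different amounts was tested within embryos, on the difference between the log2 value of *IGFBP2* and that of each of 3 others. These 3 were the others with a log2 fold change below 0 in the same embryos. *IGFBP2*, the reference of each pair, had the smallest limma p of all genes in these embryos. The adjustment over pairs covers neither choice. Against *IGFBP3*, the difference was 1.36 lower in *SOX2* KO than in WT (exact permutation test, two-sided, p = 0.0159, and 0.0476 after Benjamini-Hochberg adjustment over the 3 pairs). In these embryos *IGFBP2* fell by more than *IGFBP3*, with an adjusted p close to 0.05 that does not cover how the genes were chosen. Against *IGFBP5* the difference was 1.41 lower (exact permutation p = 0.0873, adjusted 0.131). Against *IGFBP4* it was 0.12 higher (exact permutation p = 0.754, adjusted 0.754), with SDs of 0.90 in WT and 0.97 in *SOX2* KO that leave room for a difference of either sign.

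**Figure D3:**
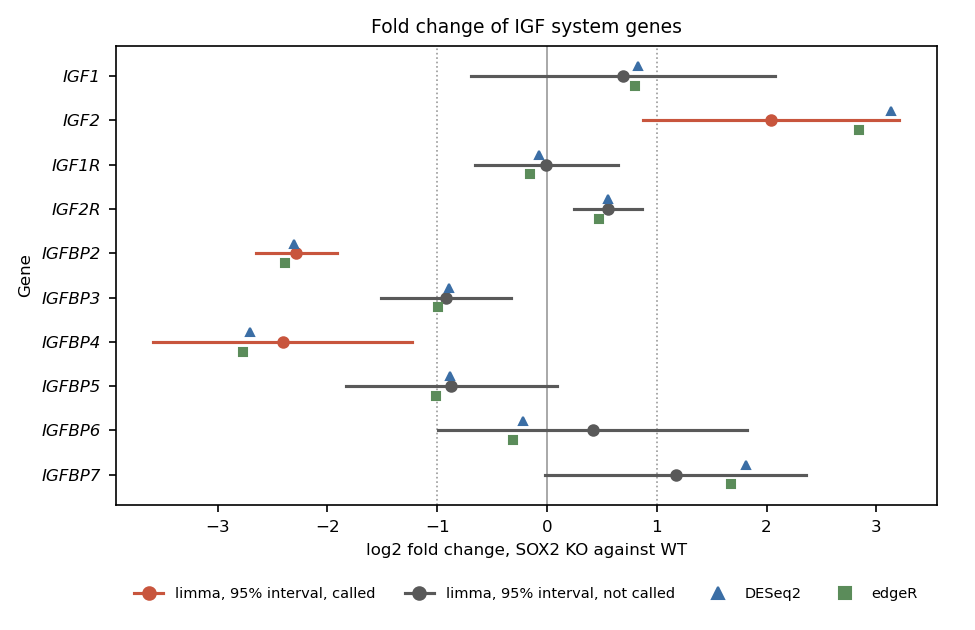
Log2 fold change of *SOX2* KO against WT (x axis) for the 10 IGF genes, from limma with 95% intervals (circles and lines, red where called) and from DESeq2 (triangles) and edgeR (squares) on the recovered reads, with dotted lines at a fold change of 2 and 0.5. The intervals of *IGFBP2*, *IGFBP3* and *IGFBP4* lie below 0 and those of *IGF2* and *IGF2R* above it, and for *IGFBP6* limma and the count tools fall on opposite sides of 0.

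*IGFBP2* and *IGFBP5* are direct neighbours on the chromosome in the RefSeq annotation of ARS-UCD2.0, and *RPL37A*, a ribosomal protein gene, is the next gene on the other side of *IGFBP2*. *RPL37A* had means of 1846 ± 438 in WT and 1848 ± 355 in *SOX2* KO (SD, n = 5 each), with a limma log2 fold change of 0.01, a 95% interval of -0.37 to 0.40 and an adjusted p of 0.970. The intervals of *RPL37A* and of *IGFBP5* both included 0. *AIRN*, the transcript that overlaps the start of *IGF2R* and is known from the mouse for silencing it on the paternal chromosome, had at most 4 reads in any embryo and 7 reads in WT against 6 in *SOX2* KO, so it could not be compared. Of the nearest tested genes on either side of *IGF2*, *TH*, 2 genes away, had means of 1.84 ± 1.86 and 3.51 ± 2.91 (SD, n = 5 each; limma adjusted p 0.535). *LOC101902537*, 3 genes away, rose from 1.62 ± 2.11 to 12.5 ± 7.52 (SD, n = 5 each; limma log2 fold change 2.53, adjusted p 0.0118), a call that was lost with the *RN18S1* covariate (limma adjusted p 0.218). Of all genes with a mean of 1 to 10, 14.1% were called higher. Strand was not recorded in these libraries, so reads of overlapping genes cannot be told apart.

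The other genes of the pathway were taken as 8 lists, of which 105 genes were tested. Of these, 7 were called higher, 6.67% against 8.93% of all genes, and none was called lower in limma, DESeq2 or edgeR. At an unadjusted p under 0.05 in limma, 24 of the 105 were higher and 6 lower. The median log2 fold change of the 105 was 0.11, and 65 of them lay above 0, against 62.9% of all genes. No share of all genes was taken at the unadjusted p. The counts at that p, here and for single lists below, are therefore not read as a result about the pathway.

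Of the other IGF and insulin ligands, receptors and carriers, none of 5 was called. *INSR*, the insulin receptor, which can pair with IGF1R, had values of 23.7, 38.6, 34.8, 30.3 and 20.1 in WT and of 25.6, 23.8, 37.2, 20.5 and 40.4 in *SOX2* KO. The means were 29.5 ± 7.65 and 29.5 ± 8.74 (SD, n = 5 each), with a limma adjusted p of 0.990. *INSRR*, an insulin receptor relative, had means of 1.15 and 5.83 with an adjusted p of 0.0543 in limma. *IGFLR1*, an IGF-like family receptor, had means of 7.54 and 3.45 (limma adjusted p 0.167) and was called lower under quantile normalization. At an unadjusted p under 0.05, 1 gene of this list was higher and 0 lower.

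Of the proteases that cleave IGF binding proteins and their inhibitors, 3 of 13 were called higher and none lower, 12 of 13 lay above 0, and the median log2 fold change was 0.80. The median of their mean levels was 5.96, and of all genes with a mean of 1 to 10, 14.1% were called higher and 83.7% lay above 0, with a median of 0.93. *PLAU*, the urokinase plasminogen activator, had values of 146, 116, 167, 427 and 663 in WT and of 940, 784, 973, 725 and 1408 in *SOX2* KO. Every *SOX2* KO embryo lay above every WT embryo, as in 6.41% of all genes. The log2 fold change was 1.96 ± 0.34 (SE, limma adjusted p 0.00139). *HTRA3*, a secreted serine protease, had 2 reads in 1 WT embryo and none in the other 4, against 5 to 12 reads in each *SOX2* KO embryo. It rose by 2.97 ± 0.55 (SE) on the log2 scale (limma adjusted p 0.00220), a value that depends on the pseudocount.

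*MMP2*, a gelatinase, was at 1.74 ± 2.17 in WT and 8.51 ± 4.59 in *SOX2* KO (SD, n = 5 each; limma adjusted p 0.0377). The call was lost without nc1, nc2, nc4, ko1, ko2, ko3 or ko5 (limma adjusted p 0.0598 to 0.0969), and in DESeq2 and edgeR (adjusted p 0.0538 and 0.0813). *CTSD*, the lysosomal protease cathepsin D, had means of 949 ± 323 and 1589 ± 328 (SD, n = 5 each; limma log2 fold change 0.80, adjusted p 0.0236), under the fold threshold. Its lowest *SOX2* KO value was 1.04 times its highest WT value, and 6.41% of all genes had every *SOX2* KO embryo above every WT embryo. The adjusted p was 0.0517 in edgeR and up to 0.382 over the 13 alternatives. In limma it was at most 0.05 in 7 of the 10 fits without 1 embryo. The pregnancy-associated metalloprotease gene *PAPPA2* was at 7.19 ± 3.63 and 12.4 ± 9.83 (SD, n = 5 each) with a limma adjusted p of 0.873, and *STC1*, which encodes an inhibitor of these proteases, was at 9.52 and 9.77 (adjusted p 0.738).

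In receptor processing and mannose-6-phosphate sorting, 2 of 10 genes were called higher, against 8.93% of all genes, and both encode convertases that cut protein precursors. *FURIN* had values of 169, 68.2, 143, 193 and 81.5 in WT and of 209, 267, 324, 273 and 330 in *SOX2* KO (log2 fold change 1.19, limma adjusted p 0.00455). *PCSK5* had values of 53.4, 68.2, 80.5, 59.8 and 48.4 in WT and of 224, 168, 166, 85.4 and 142 in *SOX2* KO (log2 fold change 1.28, limma adjusted p 0.00172). For neither gene did the groups overlap, and 6.41% of all genes were separated in this direction. Without nc2, *FURIN* had a log2 fold change of 0.98, just under the fold threshold. *M6PR*, the smaller mannose-6-phosphate receptor, which does not bind IGF2, was at 236 ± 35.2 and 207 ± 50.5 (SD, n = 5 each) with a limma adjusted p of 0.431, and *GNPTAB*, which makes the mannose-6-phosphate tag, was at 275 and 278.

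Of 17 receptor adaptors and regulators, 1 was called, *GAB1*, a docking protein that recruits PI3K and SHP2, where 8.93% of all genes were called higher. Its values were 80.9, 84.5, 63.6, 109 and 87.4 in WT and 253, 236, 142, 298 and 210 in *SOX2* KO. The groups did not overlap, a separation that 6.41% of all genes showed in this direction. The log2 fold change was 1.39 ± 0.20 (SE), and the limma adjusted p was 0.000272. *PTPN11*, which encodes SHP2, was at 497 ± 78.0 and 442 ± 49.8 (SD, n = 5 each, limma adjusted p 0.462).

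None of the 31 genes of the PI3K, AKT, mTOR and FOXO branch was called, 15 lay above 0 and 16 below, and the median log2 fold change was -0.07. At an unadjusted p under 0.05 in limma, 4 of them were higher and 5 lower, edgeR called none, and DESeq2 called 1 higher, *FOXO6*, a forkhead factor of the FOXO family. *EIF4E*, the cap-binding translation factor, had means of 626 ± 125 and 436 ± 122 (SD, n = 5 each) with an adjusted p of 0.0524 in limma and of 0.0462 in edgeR. Of 16 genes of the RAS and MAPK branch, 1 was called higher, against the same 8.93%. *MAPK3*, which encodes ERK1, had values of 27.5, 37.1, 38.8, 52.1 and 22.4 in WT and of 73.5, 43.6, 112, 87.1 and 111 in *SOX2* KO. Only ko2 overlapped with WT, through nc4, and the log2 fold change was 1.22 ± 0.28 (SE, limma adjusted p 0.00908).

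Neither the 6 tested genes that share the IGFBP domain nor the 7 tested *IGF2* mRNA-binding proteins and *IGF2* regulators held a called gene in limma, where 2 and 1 of them were higher at an unadjusted p under 0.05. *IGF2BP1* and *IGF2BP3*, whose products bind and stabilise *IGF2* mRNA, had means of 273 ± 29.6 and 274 ± 45.0 in WT and of 295 ± 43.5 and 368 ± 109 in *SOX2* KO (SD, n = 5 each), with limma adjusted p of 0.658 and 0.136. In the first list *CYR61*, which encodes a matrix-bound growth regulator, had means of 53.0 and 94.6 (limma adjusted p 0.0804), and *CTGF*, its relative, of 76.2 and 57.7 (limma adjusted p 0.238). Under the *RN18S1* covariate, limma called 2 of these 105 pathway genes, *PLAU* and *GAB1*.

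**Figure D4:**
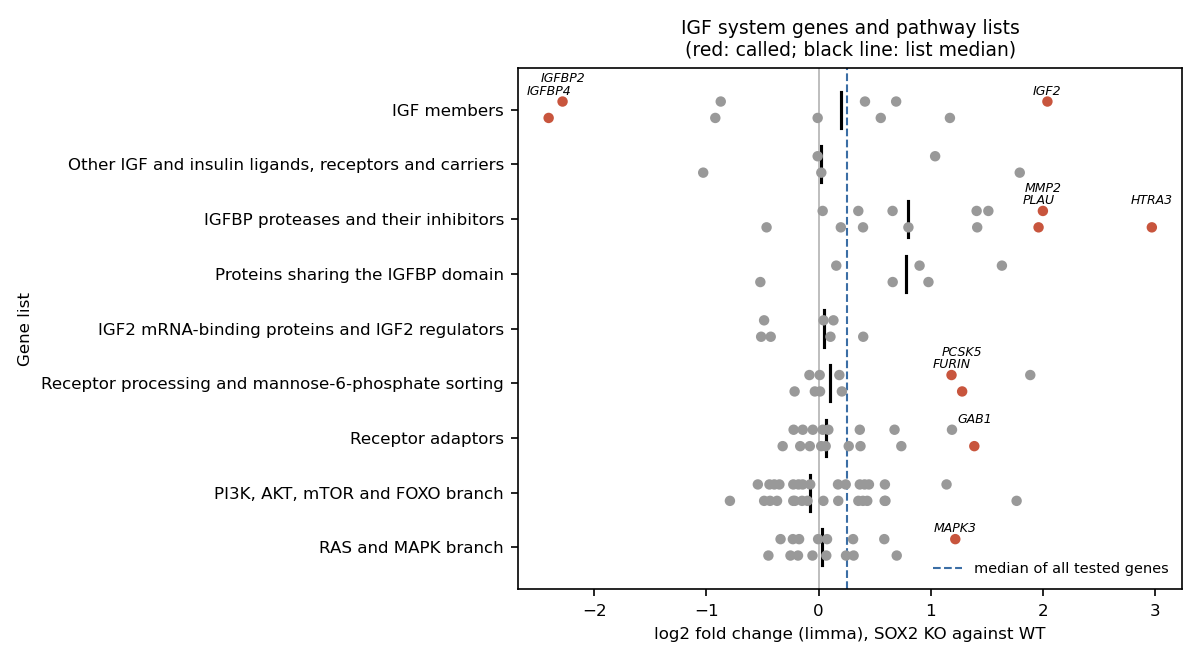
Limma log2 fold change of *SOX2* KO against WT (x axis) for each tested gene of the IGF genes and the 8 pathway lists (points, red and named where called), with the median of each list (black line) and of all genes tested (dashed line, 0.25). The 7 called genes of the pathway lists all lie to the right, 3 of them among the proteases, whereas *IGFBP2* and *IGFBP4* alone are called on the left.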

How the data were processed

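Single-embryo libraries were made by Smart-seq2 (oligo(dT) priming, PCR, no molecular identifiers, no strand). The authors trimmed reads with Trimmomatic, aligned them to ARS-UCD1.2 with HISAT2, counted genes with featureCounts and divided the counts by DESeq2 size factors. The annotation release and the strand setting are not given in the sources used here. The deposited signal values are these normalized read counts: dividing them by the step of each embryo gave whole reads for 201120 of 201120 values (tolerance 0.001 reads). Depending on the embryo, 3 reads correspond to a value between 1.77 and 4.45 (WT) or between 2.46 and 3.96 (*SOX2* KO).

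The column names gave the group but not the replicate number. No 2 embryos held identical values, and nothing states whether embryos shared a culture, so p-values measure the spread between these embryos. Genes with a mean of at least 1 (20056 of 20112) were tested with limma 3.58.1 (trend) in R 4.3.3 on log2(value + 1), all 10 embryos, Benjamini-Hochberg adjustment over all genes tested, and the thresholds of the study. DESeq2 1.42.0 and edgeR 4.0.16 (quasi-likelihood) served as alternatives on the recovered reads, beside other pseudocounts, scalings, filters, weights, covariates (*RN18S1* share, *XIST*) and fits without each embryo. The pipeline was tested on simulated data. Exact intervals of read ratios condition on the total reads and cover counting error only.

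The IGF genes and gene lists were chosen with earlier results of these data known. All 10 IGF genes were described. Of each pathway list, the called genes and some of the 4 further genes with the highest mean were named, and neighbours in the annotation (*RPL37A*, *AIRN*, *TH*, *LOC101902537*), single markers and *FOXO6* were named after their values were seen. Gene order came from RefSeq on ARS-UCD2.0, another build, so no coordinates are printed, and no sequences were used here. The single value of a marker gene is not reported here.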

Additional observations from a re-analysis of the deposited data

Results flagged for a closer look

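Of the 20 combinations of an IGF gene and a group, 3 held 1 embryo far from the other 4 (gap to the nearest value over the whole range above 0.71). Chance would give about 1 if the values were normally distributed. Genes with at most 5 reads in an embryo, such as *IGF1* and *IGF2* in WT, do not meet that condition, so the 3 are not read as an excess. *IGF1* was at 7.42 in the WT embryo nc2, which is 5 reads, against 0 to 0.994 in the other WT embryos. *IGF2* was at 2.98 in the WT embryo nc3, which is 3 reads, against 0 in the others, and without nc3 its limma log2 fold change was 2.44 with an adjusted p of 0.00792. *IGF2R* was at 160 in the WT embryo nc2 against 185 to 192 in the others, and without nc2 its limma log2 fold change was 0.51 with an adjusted p of 0.0490. The embryo nc2 had the fewest reads of the 10, 2223670, and the part of depth in its values was not tested.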

How the results depend on the processing

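Of the 126 values of single IGF genes under the 13 alternatives, 110 kept their direction and their side of the threshold, 3 passed it only there, 6 lost it and 7 turned their direction. *IGF1* turned to -0.089 under quantile normalization. *IGF1R* turned to 0.092 with the median log ratio scaling and to 0.065 with sample quality weights. *IGFBP6* turned to -0.36 under quantile normalization, -0.22 in DESeq2, -0.31 in edgeR and -0.11 with the *RN18S1* covariate. Leaving out 1 embryo moved the log2 fold change of *IGF1R* between -0.26 and 0.13 and that of *IGFBP6* between -0.26 and 0.82. *IGF1*, *IGF2*, *IGFBP6* and *IGFBP7* could not be tested with a mean of at least 10.

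The count of called IGF genes was 3. It was 5 with no fold threshold, 1 with the *RN18S1* covariate and 2 to 4 without 1 embryo. The 7 calls in the pathway lists became 13 with sample quality weights, 2 with the *RN18S1* covariate and 5 to 14 without 1 embryo, 14 being without ko4. Of all genes, 2024 were called, against 1185 with a pseudocount of 5, 1076 under quantile normalization, 3515 with sample quality weights, 692 with a mean of at least 10 (11334 genes tested), 220 with the *RN18S1* covariate and 947 (without ko5) to 3324 (without ko4) without 1 embryo. Without nc1, nc2, nc4 or ko1 it was 1293, 1232, 1273 and 1102. The share of calls that were higher was 88.5%, 58.5% under quantile normalization and 62.3% with the *RN18S1* covariate. The median log2 fold change of all genes shifted by -0.27 under quantile normalization and by -0.11 after scaling to equal totals. The causes were not tested. Genes with a few reads in an embryo, *IGF1*, *IGF2* and *IGFBP7*, are limited by depth. No paired analysis was possible because the *SOX2* KO columns carry no replicate numbers that match the labels.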
